A study of Drosophila melanogaster with 9 samples.

Results

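The genes described here encode sensors of microbial cell walls in the ring gland of Drosophila melanogaster larvae. They are 10 genes of the deposited table of 14409, chosen by name: the peptidoglycan recognition proteins PGRP-SA, PGRP-SB1, PGRP-SB2, PGRP-SC2, PGRP-SD, PGRP-LB and PGRP-LC, the glucan-binding family members GNBP1 and GNBP3, and GNBP-like3. The ring gland is the composite endocrine organ of the larva, in which the prothoracic gland makes ecdysone, the corpora allata make juvenile hormone and the corpora cardiaca make adipokinetic hormone. Glands of w1118 larvae, a white-eyed laboratory strain that is the genotype of every group, were dissected and pooled, about 1200 to a library. There were 3 groups of 3 libraries, 1 from larvae that fed and the others from larvae starved either before (pre-NRC starvation) or after (post-NRC starvation) the nutrient restriction checkpoint. The feeding columns carry 108 h in their names. Neither the ages of the starved larvae nor the length of starvation could be taken from the labels, so starvation and age cannot be told apart in either comparison with feeding. Between the starved groups, the side of the checkpoint cannot be told apart from age or length of starvation.

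Flies detect bacteria and fungi mainly by their cell walls. Peptidoglycan of most Gram-negative bacteria is bound by PGRP-LC at the cell surface, which starts the Imd pathway and the NF-kB factor Relish. Peptidoglycan of many Gram-positive bacteria is bound in the hemolymph by PGRP-SA with GNBP1, and fungal beta-glucan by GNBP3, both of which lead to the cleavage of Spätzle, the ligand of Toll. Other members of the peptidoglycan family are amidases or belong to that group by sequence, among them PGRP-LB and the PGRP-SC and PGRP-SB proteins. By cutting peptidoglycan, PGRP-LB and the PGRP-SC proteins limit the Imd response. Fat body, gut and blood cells are the tissues best known for these genes.

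Libraries held 29123939 to 36131089 counts. Markers of the gland were present in every library, with phm of the prothoracic gland at 2564 to 15430 CPM (counts relative to the TMM-scaled library size), Akh of the corpora cardiaca at 1372 to 17480 CPM and jhamt of the corpora allata at 433.7 to 818.0 CPM. Glands were pooled and whole, so fewer cells of a type and less RNA per cell cannot be told apart. Library 3 of each group stood apart from libraries 1 and 2 over all genes, and in feeding its summed midgut markers were at 975.0 CPM against 105.2 and 118.3 CPM in the other libraries.

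In pre-NRC starvation 7 of the 10 genes rose against feeding and 0 fell, by edgeR's quasi-likelihood test with a Benjamini-Hochberg adjusted p under 0.05 over 10883 genes. Of all genes tested, 16.1% were called higher in this comparison and 11.5% lower. The receptor PGRP-LC, the amidase-group genes PGRP-LB, PGRP-SC2 and PGRP-SB2, the hemolymph recognition genes PGRP-SA and PGRP-SD, and GNBP-like3 made up the rises. GNBP1, GNBP3 and PGRP-SB1 did not pass. For 9 genes, all but GNBP1, each pre-NRC library was above each feeding library, as for 25.3% of all genes tested, and for 0 genes each was below, against 23.1%. The 10 genes together took 48.8 to 55.6 CPM in feeding, 390.6 to 480.4 CPM in pre-NRC starvation and 108.0 to 263.8 CPM in post-NRC starvation, and the ranges of the groups did not overlap. PGRP-SB1, PGRP-SB2 and GNBP-like3 reached the count filter in all libraries of pre-NRC starvation and of no other group, so they could enter the test only by being high there. Of the markers of other tissues given further on, 11 of 14 for midgut, 4 of 9 for muscle and aorta, 3 of 11 for fat body and 3 of 12 for hemocytes also rose in pre-NRC starvation, as did all 3 of the corpora cardiaca.

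**Figure D1:**
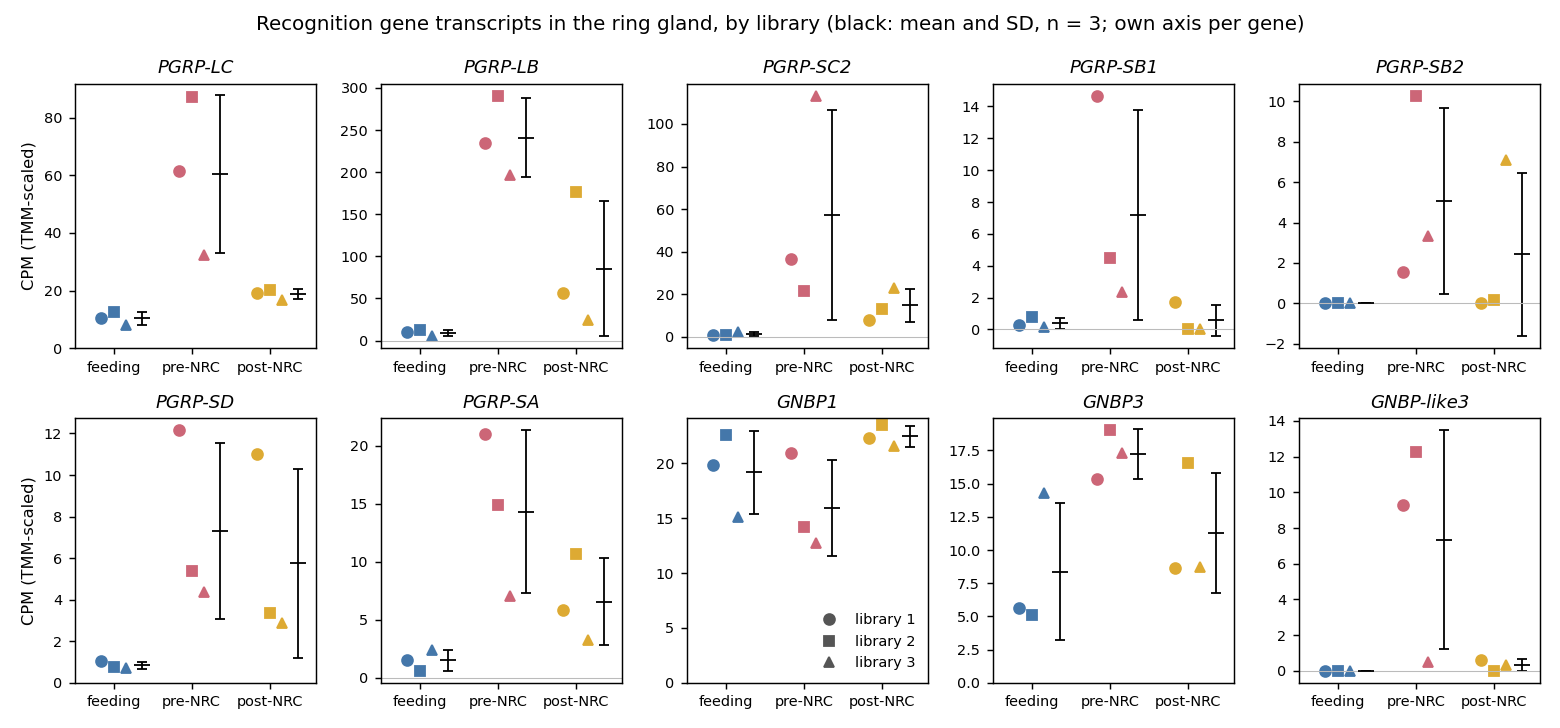
Transcript level of each of the 10 recognition genes in CPM (vertical axis, a separate scale per gene, starting at or below 0) in the 9 libraries, with symbols for the library number, colours for the groups and black bars for the mean and SD of 3 libraries. For 9 genes every pre-NRC starvation library lies above every feeding library, and GNBP1 is the exception.

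PGRP-LC (FBgn0035976; build BDGP6, chromosome 3L, 9338810 to 9348336) is the transmembrane receptor at the head of the Imd pathway. It was at 10.3, 12.6 and 8.17 CPM in the feeding libraries 1, 2 and 3, at 61.4, 87.3 and 32.5 CPM in pre-NRC starvation and at 19.1, 20.1 and 16.8 CPM in post-NRC starvation. The 3 groups did not overlap in any pairing, with feeding lowest and pre-NRC starvation highest. Its log2 change in pre-NRC starvation against feeding was 2.54 (SE 0.36, adjusted p = 0.00319), a 5.81-fold rise. In post-NRC starvation against feeding it was 0.84 (SE 0.34, adjusted p = 0.298), which did not pass.

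PGRP-LB (FBgn0037906; 3R, 11452849 to 11460552) encodes an amidase that breaks down the peptidoglycan of Gram-negative bacteria. Feeding libraries held 10.3, 12.1 and 5.36 CPM, pre-NRC starvation libraries 235.1, 290.9 and 197.2 CPM and post-NRC starvation libraries 56.0, 176.4 and 24.2 CPM. The post-NRC libraries thus spanned a wide range, all of it above feeding and below pre-NRC starvation. The log2 change in pre-NRC starvation was 4.70 (SE 0.72, adjusted p = 0.00419), or 26.0-fold. Of the summed CPM of the 10 genes, which is not divided by gene length, PGRP-LB made up 10.98% to 21.8% in the feeding libraries, against 50.5% to 60.5% before the checkpoint.

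PGRP-SC2 (FBgn0043575; 2R, 8716950 to 8717695) encodes a secreted amidase best known from the gut. It was at 0.750, 0.937 and 2.54 CPM in feeding, at 36.8, 21.6 and 113.3 CPM in pre-NRC starvation and at 8.18, 13.1 and 23.2 CPM in post-NRC starvation. Library 3 was the highest of its group each time, and both starved groups lay above feeding. The log2 change in pre-NRC starvation was 5.34 (SE 0.83, adjusted p = 0.00422). It was 4.37 when pre-NRC library 3 was left out and 6.06 when feeding library 3 was, with the call kept in both. PGRP-SC1a and PGRP-SC1b are close copies on the same chromosome arm, so how counts were split among the PGRP-SC genes is uncertain.

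The amidase gene PGRP-SB1 (FBgn0043578; 3L, 16727299 to 16727989) and its neighbour PGRP-SB2 (FBgn0043577; 3L, 16726541 to 16727288), which belongs to the amidase group by sequence, lie on opposite strands with 10 bases between their annotated 3′ ends. PGRP-SB1 had 8, 25 and 4 counts in the feeding libraries, 487, 147 and 85 in those of pre-NRC starvation and 49, 0 and 0 after the checkpoint. Its pre-NRC libraries were all above feeding, but their spread was large and the change did not pass (log2 change 4.24, SE 1.76, adjusted p = 0.102). It passed in DESeq2 (adjusted p = 0.0201), in edgeR on the 6 libraries compared (0.0276) or without post-NRC starvation replicate 1 (0.0303), and in limma on log2(FPKM + 1) (0.0141) and log2(FPKM + 0.1) (0.0373).

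PGRP-SB2 had 0 counts in all 3 feeding libraries. Pre-NRC starvation libraries held 52, 335 and 120 counts and those of post-NRC starvation 0, 5 and 232, where library 3 held nearly all of them. Against the limit of 3 counts over the feeding group, which is 0.0307 CPM, it was at least 162-fold higher in pre-NRC starvation (adjusted p = 0.0445). In post-NRC starvation the ratio was at least 86.3-fold, which did not pass (adjusted p = 0.220). The 2 neighbours did not share their highest library: in post-NRC starvation the counts of PGRP-SB1 were in library 1 and those of PGRP-SB2 in libraries 2 and 3.

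PGRP-SD (FBgn0035806; 3L, 7651180 to 7651900) encodes a secreted recognition protein that works with other PGRPs. It was at 1.03, 0.786 and 0.704 CPM in feeding, at 12.2, 5.40 and 4.36 CPM in pre-NRC starvation and at 11.01, 3.35 and 2.87 CPM in post-NRC starvation. In both starved groups library 1 was the highest and all libraries exceeded feeding. The log2 change was 3.11 (SE 0.66, adjusted p = 0.0118) in pre-NRC starvation, and 2.53 when pre-NRC library 1 was left out. The gene overlaps an exon of CG7492 on the other strand, so some of its counts are uncertain.

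PGRP-SA (FBgn0030310; X, 11561643 to 11562779) encodes the hemolymph sensor upstream of Toll. Feeding libraries held 1.50, 0.605 and 2.42 CPM, pre-NRC starvation libraries 21.0, 14.9 and 7.06 CPM and post-NRC starvation libraries 5.84, 10.6 and 3.24 CPM. Both starved groups were above feeding and they overlapped each other. The rise in pre-NRC starvation was 9.48-fold (log2 change 3.24, SE 0.68, adjusted p = 0.0111).

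GNBP1 (FBgn0040323; 3L, 18675800 to 18677876), the partner of PGRP-SA, differed from it. Its level was 19.2 ± 3.77 CPM in feeding, 15.9 ± 4.40 CPM in pre-NRC starvation and 22.5 ± 0.962 CPM in post-NRC starvation (mean ± SD, n = 3 each), and feeding overlapped both starved groups. The log2 change was −0.27 (SE 0.25, adjusted p = 0.454) in pre-NRC and 0.23 (SE 0.25, adjusted p = 0.756) in post-NRC starvation.

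GNBP3 (FBgn0040321; 3L, 8955021 to 8956551), the sensor of fungal glucan, was at 5.66, 5.14 and 14.3 CPM in feeding, 15.3, 19.1 and 17.3 CPM in pre-NRC starvation and 8.63, 16.5 and 8.71 CPM in post-NRC starvation. Feeding library 3 lay close to the pre-NRC libraries and far from the other feeding libraries. The log2 change of 1.04 in pre-NRC starvation (SE 0.44, adjusted p = 0.111) did not pass. Without feeding replicate 3 it was 1.66 and passed (adjusted p = 0.0199).

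GNBP-like3 (FBgn0034511; 2R, 20526311 to 20526825) is a short gene whose Swiss-Prot match in the authors' deposited table is a Gram-negative bacteria-binding protein, GNBP3. It had 0 counts in all feeding libraries, 308, 400 and 18 in those of pre-NRC starvation and 18, 0 and 11 after the checkpoint. Library 3 of pre-NRC starvation was thus far below the other 2 and within the range of post-NRC starvation. Against the same limit of 3 counts over the feeding group the gene was at least 232-fold higher in pre-NRC starvation (adjusted p = 0.0180) and at least 10.6-fold higher in post-NRC starvation, the latter not passing (adjusted p = 0.275).

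The calls of PGRP-LC, PGRP-LB, PGRP-SC2 and PGRP-SA in pre-NRC starvation held whichever of the 9 libraries was left out. That of PGRP-SD ended when feeding replicate 2 was left out (adjusted p = 0.0518), that of GNBP-like3 when feeding replicate 1 or 2 (0.0517 or 0.0528) or pre-NRC starvation replicate 2 (0.0512) was. PGRP-SB2 was lost when any feeding library was left out (0.103, 0.104 and 0.0793 for replicates 1, 2 and 3) or any pre-NRC starvation library (0.0708, 0.103 and 0.0578). Both GNBP-like3 (0.0949) and PGRP-SB2 (0.0520) also missed the threshold in limma-voom, and PGRP-SB2 on log2(FPKM + 1) in limma (0.0604) and with feeding libraries 1 and 2 summed (0.0928). The count of rises was 4 without feeding replicate 2, where GNBP-like3, PGRP-SB2 and PGRP-SD were lost, and 5 to 8 when any other single library was left out.

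**Figure D2:**
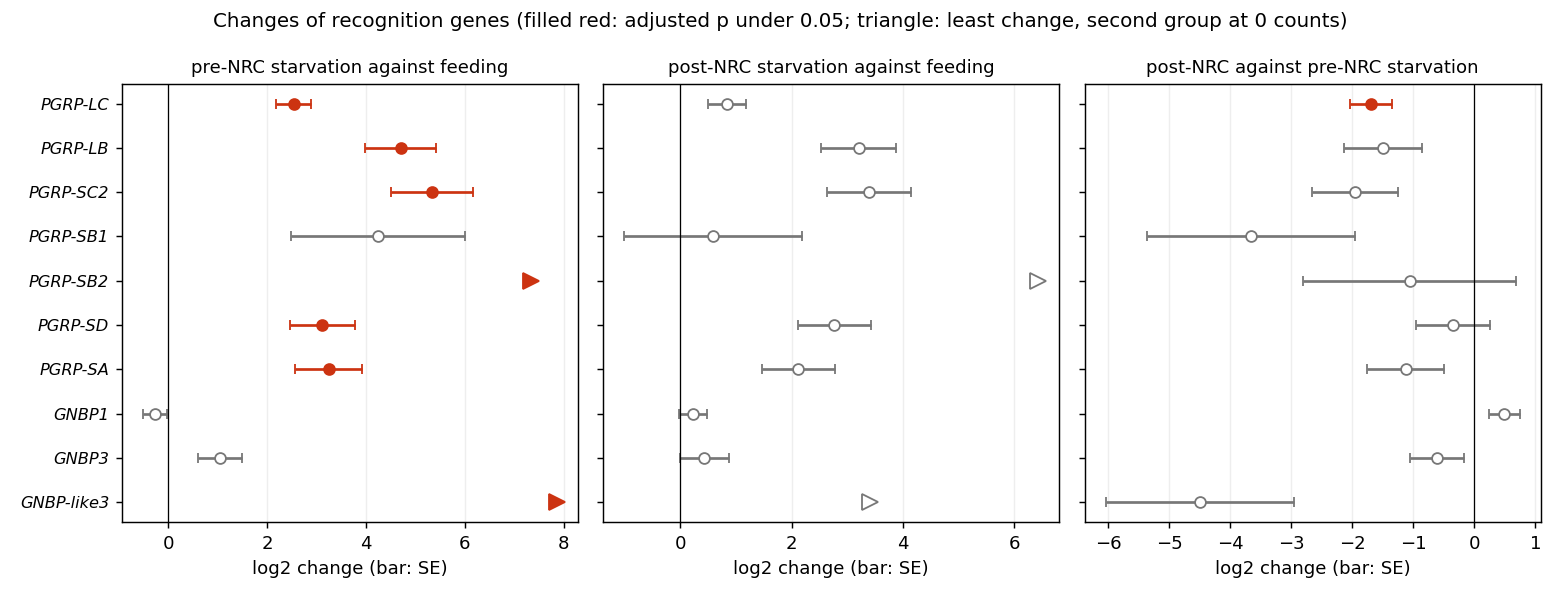
Log2 change of each gene (horizontal axis) in the 3 comparisons, with bars for the SE, red filled points for an adjusted p under 0.05 in edgeR and triangles for the least change where the feeding group had 0 counts. The 7 red points of pre-NRC starvation against feeding span rises from 2.54 upwards, no point is red in post-NRC starvation against feeding, and PGRP-LC is the single red point of post-NRC against pre-NRC starvation.

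In post-NRC starvation 0 of the 10 genes passed against the same feeding libraries, where 0.634% of all genes were called higher and 0.175% lower. At an unadjusted p under 0.05 there were 7, all higher. The share of all genes at that limit was not counted, so this number has no background to be read against. PGRP-SB2 and GNBP-like3, among the 7, had 0 counts in feeding and could only be higher. DESeq2 called 6, where it called 733 over all genes, and limma-voom 0, where it called 41. Among the 8 genes with counts in feeding, the largest fitted differences were those of PGRP-SC2 (log2 change 3.39, SE 0.76, adjusted p = 0.0844), PGRP-LB (3.21, SE 0.68, adjusted p = 0.0750), PGRP-SD (2.77, SE 0.65, adjusted p = 0.0955) and PGRP-SA (2.12, SE 0.65, adjusted p = 0.178). Leaving out 1 library moved PGRP-LB to 2.11 (without post-NRC library 2), PGRP-SD to 1.88 (without post-NRC library 1) and PGRP-SC2 to 4.12 (without feeding library 3). All 3 post-NRC libraries lay above all feeding libraries for these genes and for PGRP-LC, 5 genes in all, against 13.0% of all genes tested. With the replicate number as a block, which treats same-number libraries as pairs, 3 genes rose, where 193 were called over all genes. They were PGRP-SC2 (3.50, adjusted p = 0.0159), PGRP-LB (2.91, adjusted p = 0.0372) and PGRP-SD (2.501, adjusted p = 0.0372). PGRP-SC2 also passed when pre-NRC starvation replicate 3 was left out (adjusted p = 0.0412), and PGRP-LB when post-NRC starvation replicate 3 was (0.0331). Since both starved groups were set against the same feeding libraries, the 2 comparisons are not independent.

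The direct comparison of post-NRC with pre-NRC starvation asks whether the level in starved glands differed with the side of the checkpoint. Age and length of starvation cannot be told apart from that side here. PGRP-LC fell (log2 change −1.69, SE 0.35, adjusted p = 0.0378), and 3.29% of all genes were called lower and 1.90% higher. Beside it 4 of 9 muscle and aorta markers fell (Act57B, prc, Mlc2 and up), and 1 each for midgut (Jon99Cii), fat body (Gnmt) and corpora cardiaca (CG8317), and the part of other tissues was not tested. This call was kept when library 3 of feeding or of pre-NRC starvation was left out, and lost without each of the other 7 libraries. Without feeding replicate 1 or 2 the adjusted p was 0.0726 or 0.0690. Without pre-NRC starvation replicate 1 or 2 it was 0.102 or 0.123, and without the post-NRC starvation libraries 1, 2 or 3 it was 0.148, 0.0852 or 0.0653. It was also lost in a fit of the 6 starved libraries alone (adjusted p = 0.0838). PGRP-LB was at 241 ± 47.1 CPM in pre-NRC and 85.5 ± 80.3 CPM in post-NRC starvation without passing (−1.50, SE 0.63, adjusted p = 0.172), although the groups did not overlap. PGRP-SB1 had no overlap either (−3.65, SE 1.70, adjusted p = 0.206). For these 3 genes every post-NRC library was below every pre-NRC library, against 15.7% of all genes tested. GNBP-like3 (−4.50, SE 1.54, adjusted p = 0.127) and PGRP-SC2 (−1.95, SE 0.70, adjusted p = 0.125) did not pass, although PGRP-SC2 (−1.75, adjusted p = 0.0287) and PGRP-LB (−1.89, adjusted p = 0.0393) did with the replicate number as a block, and GNBP-like3 did so when pre-NRC starvation replicate 3 was left out (−5.05, adjusted p = 0.0476). PGRP-SD was at 7.30 ± 4.23 CPM before and 5.74 ± 4.57 CPM after the checkpoint (−0.35, SE 0.60, adjusted p = 0.755). GNBP1 was the 1 gene higher in every post-NRC library (0.49, SE 0.25, adjusted p = 0.243), where 13.7% of all genes tested were.

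Levels were ranked between genes only on the authors' FPKM scale, which divides by gene length. In feeding, GNBP1 was highest at 8.76 ± 1.54 FPKM, followed by GNBP3 at 4.48 ± 2.91, PGRP-LB at 3.61 ± 2.76 and PGRP-LC at 3.30 ± 0.670 FPKM. Next came PGRP-SA (1.64 ± 1.06), PGRP-SC2 (1.54 ± 1.13), PGRP-SD (0.930 ± 0.178) and PGRP-SB1 (0.472 ± 0.421 FPKM), with PGRP-SB2 and GNBP-like3 listed at 0. Neighbours in this order overlapped in their ranges down to PGRP-SB1. In pre-NRC starvation the order began with PGRP-LB at 99.99 ± 65.4 FPKM and PGRP-SC2 at 64.6 ± 61.6 FPKM, then PGRP-LC at 22.0 ± 9.67 and PGRP-SA at 15.1 ± 5.94 FPKM. GNBP1, the highest in feeding, stood at 7.09 ± 1.12 FPKM in pre-NRC starvation, at position 9 of 10, and every neighbouring pair overlapped. In post-NRC starvation PGRP-LB (45.7 ± 47.1 FPKM) and PGRP-SC2 (16.2 ± 10.1 FPKM) led again, GNBP1 was at position 3 with 9.92 ± 0.760 FPKM, and neighbours overlapped throughout. In library 3 of both starved groups PGRP-SC2 was above PGRP-LB, at 135.4 against 29.99 FPKM before the checkpoint and 27.48 against 7.40 FPKM after it. The counts and FPKM values of PGRP-LB did not keep 1 ratio over the libraries, and its pre-NRC library 3 had 7099 counts at 30.0 FPKM beside 7800 counts at 110 FPKM in library 1. The gene length that count and FPKM imply together was 7208 and 3680 bases in library 3 before and after the checkpoint. It was 1683 to 1954 bases in libraries 1 and 2 of both starved groups, and 4145, 1715 and 3369 bases in feeding. The positions of PGRP-LB in these orders, and its gap to PGRP-SC2 in library 3, are therefore uncertain.

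**Figure D3:**
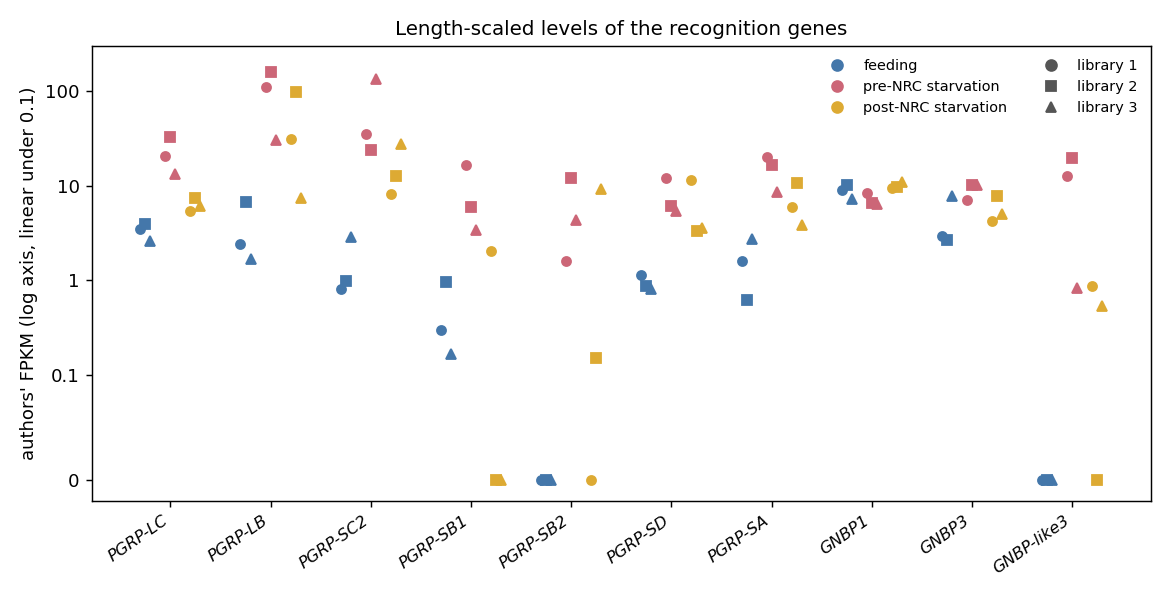
Length-scaled level (FPKM as deposited, on a log axis that is linear under 0.1) of the 10 genes in each library, with colours for the groups and symbols for the library number. GNBP1 stays near 10 FPKM in all libraries, whereas PGRP-LB runs from 1.66 FPKM in feeding to 159.5 FPKM in pre-NRC starvation. The ratio of FPKM to counts of PGRP-LB differed between libraries.

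Of the other genes of the 2 families, 9 were found in the table and 6 were tested. In pre-NRC starvation 3 rose and 0 fell against feeding, where 16.1% of all genes tested rose and 11.5% fell. PGRP-LF, a receptor-like protein that dampens PGRP-LC signalling and whose gene follows PGRP-LC on 3L after 1272 bases, was at 0.591 ± 0.241 CPM in feeding and rose to 31.0 ± 20.3 CPM, a log2 change of 5.70 (SE 0.85, adjusted p = 0.00368). Its exons overlap those of UGP on the other strand, so some of its counts are uncertain. PGRP-LA, which ends 473 bases before PGRP-LC, was at 6.98 ± 0.859 CPM in feeding and rose to 16.9 ± 4.13 CPM (1.28, SE 0.33, adjusted p = 0.0232). PGRP-SC1a had 0 counts in feeding and was at least 43.2-fold higher (adjusted p = 0.0279), but it reached the count filter in pre-NRC starvation alone and so could enter the test only by being high there. The intracellular sensor PGRP-LE was at 49.8 ± 11.2 CPM in feeding and 35.4 ± 2.12 CPM in pre-NRC starvation (−0.49, SE 0.23, adjusted p = 0.146), and GNBP2 and PGRP-LD did not pass either. PGRP-SC1b, CG12780 and CG30148 were below the filter. In post-NRC starvation 0 of the 6 passed in edgeR, with 1 at an unadjusted p under 0.05, PGRP-LF at 3.01 (SE 0.77, adjusted p = 0.119).

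Downstream of the sensors, 3 of 17 Imd pathway genes rose and 1 fell in pre-NRC starvation, where 16.1% of all genes rose and 11.5% fell, so the count of rises was near the background. The median log2 change of the list was −0.07 beside 0.00 over all genes. The NF-kB factor gene Rel was at 73.2 ± 0.953 CPM in feeding and rose to 273 ± 108 CPM (1.90, SE 0.36, adjusted p = 0.00799). The Imd inhibitor pirk rose as well (1.92, SE 0.32, adjusted p = 0.00515), and the ubiquitin-conjugating enzyme gene ben fell (−1.18, SE 0.24, adjusted p = 0.0101). The remaining rise was that of cad, which had 0 counts in all feeding libraries. It entered the test only through starved libraries and could not be lower than feeding. Of 16 Toll pathway genes 7 rose and 0 fell (median 0.59), among them the NF-kB factor gene Dif (1.83, SE 0.27, adjusted p = 0.00368), the serpin gene nec (1.89, SE 0.32, adjusted p = 0.00558) and the Toll ligand gene spz (1.79, SE 0.32, adjusted p = 0.00623). Post-NRC starvation against feeding had 0 calls in both lists in edgeR (2 Imd and 3 Toll genes at an unadjusted p under 0.05). Against pre-NRC starvation, Dif (−1.23, SE 0.27, adjusted p = 0.0417) and spz (−1.55, SE 0.31, adjusted p = 0.0378) fell. Exons of Dif overlap those of CG15141, and exons of spz those of CG43935, so some of their counts are uncertain.

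The antimicrobial peptide and bomanin genes, the effectors of both pathways, were the list with the highest count. Of 30, 24 were tested, and 21 rose and 0 fell in pre-NRC starvation, where 16.1% of all genes rose and 11.5% fell. The median log2 change was 6.29, or 6.23 with the 6 genes at 0 in feeding set to their least change. Those 6 entered the test only through starved libraries, so they could not be lower than feeding. Others of the 21 also needed starved libraries to reach the count filter. Among them, CecA1, Dro, IM23, IM3, CG5791, Mtk and AttC were at 0 in some of the feeding libraries. The antifungal peptide gene Drs was at 0.307 ± 0.0280 CPM in feeding and rose to 24.4 ± 7.07 CPM (6.30, SE 0.38, adjusted p = 0.000133). The bomanin genes IM1 and IM2 had 0 counts in feeding and were at least 237-fold and 255-fold higher (adjusted p = 0.00244 and 0.00135). In post-NRC starvation 5 rose and 0 fell against feeding, where 0.634% of all genes were called higher and 0.175% lower. Drs was among the 5, at 9.87 ± 2.55 CPM (4.99, SE 0.36, adjusted p = 0.000624). Against pre-NRC starvation, Drs (−1.31, SE 0.30, adjusted p = 0.0460) and AttB (−3.18, SE 0.76, adjusted p = 0.0489) fell.

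Some markers of other tissues also rose in pre-NRC starvation, while others fell or were not called. Of 14 midgut markers, digestive proteases and carbohydrases, 13 were tested, and 11 rose in pre-NRC starvation, where 16.1% of all genes tested did. Among the 11, Jon99Ci, lambdaTry and Jon65Ai were under the count filter (0.306 CPM) in every feeding library. Their highest feeding values were 0, 0.0938 and 0.276 CPM, so they could enter the test only through starved libraries. Their summed level was 105.2 to 975.0 CPM in feeding, 2801 to 17690 CPM in pre-NRC starvation and 1552 to 6352 CPM in post-NRC starvation. Library 3 of pre-NRC starvation was the highest of its group in midgut markers and in PGRP-SC2, and the lowest in PGRP-LB, which was highest in library 2, where the midgut sum was lowest. In post-NRC starvation library 2 was the highest in midgut markers and in PGRP-LB, whereas PGRP-SC2 was highest in library 3, with a midgut sum of 2845 CPM. Jon65Aii and Jon99Ci had 0 counts in all feeding libraries, and Jon65Aii also in post-NRC starvation.

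Of 11 fat body markers 3 rose (Gnmt, Rfabg and Nplp2) and 0 fell by the test, with sums of 926.6 to 2126 CPM in feeding, 3194 to 4524 CPM in pre-NRC and 1059 to 1900 CPM in post-NRC starvation. The median log2 change of the list in pre-NRC starvation was 0.09. From feeding to pre-NRC starvation the median library of Nplp2 went from 111 to 3032 CPM. That of Lsp1beta went from 292 to 7.95 CPM, of Lsp1gamma from 127 to 12.8, of Lsp1alpha from 69.7 to 0.844 and of Fbp2 from 55.6 to 4.54 CPM. The larval serum protein gene Lsp2 was at 90.2 to 238.2 CPM in feeding and at 2.02, 22.1 and 728.2 CPM from the lowest to the highest library of pre-NRC starvation. Of 12 hemocyte markers 11 were tested and 3 rose (Hml, He and Sr-CI), with sums of 699.2 to 1965 CPM in feeding, 1937 to 3311 CPM in pre-NRC and 913.5 to 1347 CPM in post-NRC starvation, and NimC4 at 0 in feeding. Of 9 muscle and aorta markers 4 rose (Tm2, prc, Hand and up), with sums of 5282 to 5484 CPM in feeding, 7296 to 10770 CPM before and 2114 to 4343 CPM after the checkpoint. The 3 corpora cardiaca markers rose, from sums of 1530 to 4841 CPM to sums of 8862 to 18080 CPM, with 4758 to 9125 CPM in post-NRC starvation. Of 5 trachea markers 0 were called in edgeR, with 2 at an unadjusted p under 0.05, and of 6 salivary gland markers 2 fell (Sgs5 and Sgs8). The 6 prothoracic gland markers all fell in pre-NRC starvation, from sums of 26110 to 36430 CPM to sums of 3654 to 11190 CPM. The part of other tissues in the rises of the recognition genes was not tested.

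**Figure D4:**
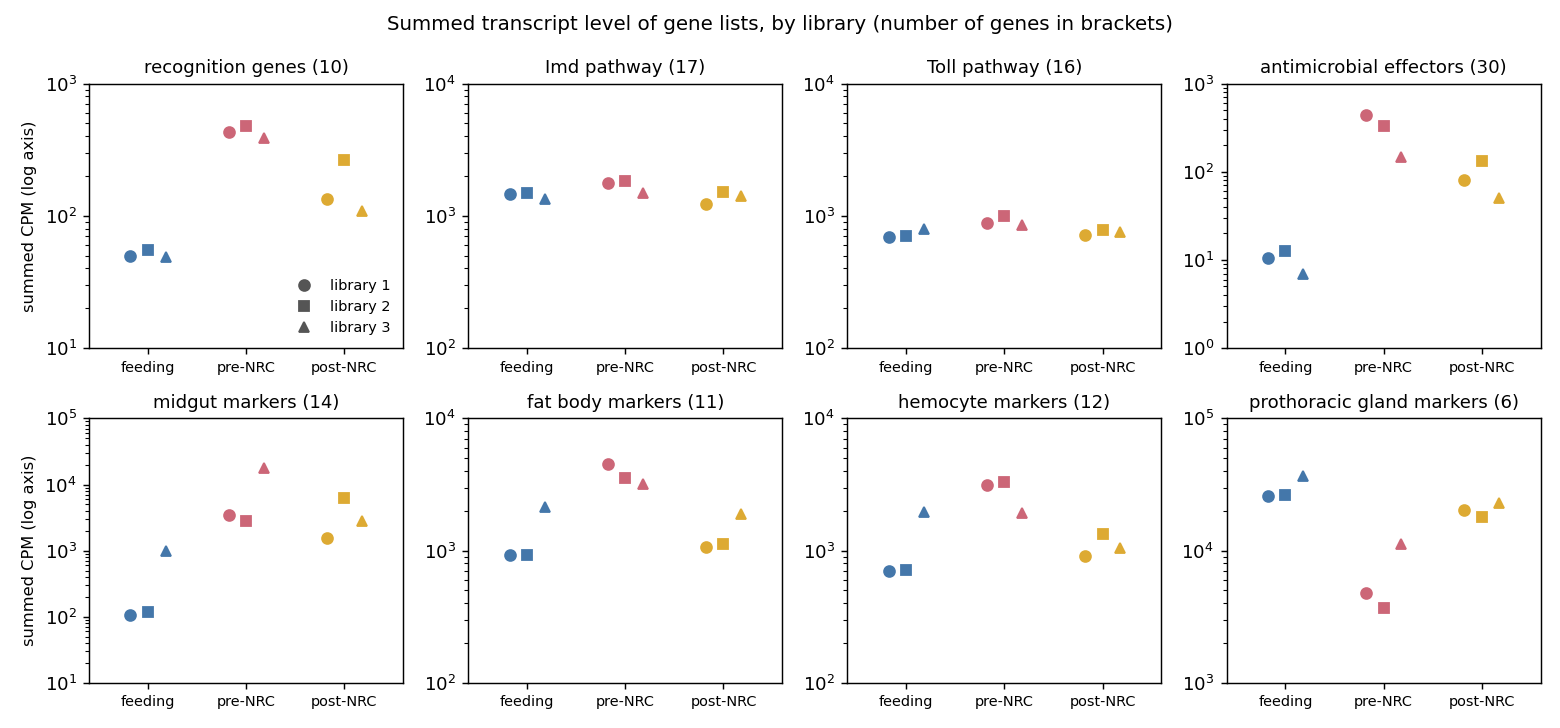
Summed CPM of 8 gene lists (vertical log axes, a separate range per list) in each of the 9 libraries, with the number of genes of each list in brackets. The 10 recognition genes, the antimicrobial effectors and the midgut markers are lowest in feeding and have their highest libraries in pre-NRC starvation, while the prothoracic gland markers are lowest in pre-NRC starvation.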

How the data were processed

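The deposited table holds, per the file headers, a count and an FPKM value for each gene in each of 9 libraries. Per the labels, RNA of pooled glands was made into NEBNext directional libraries and sequenced as paired ends. The counts were made and deposited by the authors. HISAT2, StringTie, Bowtie, Cufflinks and build BDGP6 are named in the submitters' processing notes, and which program counted, and with what strand setting, is not given in the sources used here. FPKM, per the file headers, is likewise the authors' own value. The columns named as wild type have no starvation term and were taken as feeding.

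Counts were filtered with filterByExpr (minimum 10), which left 10883 genes and all 10 members, scaled by TMM and tested with edgeR 4.0.16 (quasi-likelihood, two-sided, all 9 libraries, 1 coefficient per group, Benjamini-Hochberg over all genes, threshold 0.05). The SE came from the fitted change and its statistic. The code was tested on simulated data. Genes at 0 counts in a group are given as least ratios against 3 counts over the group, which covers counting error only. Alternatives were DESeq2 1.42.0, limma 3.58.1 (voom, and log2(FPKM + 1) or log2(FPKM + 0.1)), other factors, no filter, fewer libraries and a replicate block. FPKM was otherwise used only for levels between genes. Coordinates are from annotation of BDGP6 (Ensembl).

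The replicate block treats same-number libraries as pairs. From the data, same-number starved and feeding libraries deviated together (correlations 0.117 to 0.302 for pre-NRC, 0.119 to 0.297 for post-NRC starvation). Libraries 1 and 2 did so crosswise to a like degree. Library 1 of pre-NRC starvation with feeding library 2 gave 0.125, and 2 with 1 gave 0.116. For post-NRC starvation these were 0.101 and 0.0946. The correlations thus set library 3 apart and do not show which of libraries 1 and 2 belong together. Labels call the libraries biological replicates, and p values treat them as separate pools. Feeding libraries 1 and 2 had close marker sums for fat body (926.6 and 932.5 CPM) and hemocytes (699.2 and 713.6 CPM). Feeding library 3 had 2126 and 1965 CPM. For corpora cardiaca, feeding libraries 1 and 2 differed (1530 and 4841 CPM). Their independence was not tested. Over all genes, pre-NRC starvation against feeding had 2998 calls, and 1230 or 1166 without feeding library 1 or 2. It had 2608 without feeding library 3, and 1263 with feeding libraries 1 and 2 summed. The members, lists and tests were chosen with earlier results of these data known. All 10 members are named, and of each other list up to 3 genes with the smallest adjusted p past the threshold in a comparison. Further genes were named after their values were seen (PGRP-LE, Lsp2, the muscle and aorta markers, and those at 0 or under the count filter in feeding libraries).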

Additional observations from a re-analysis of the deposited data

Results flagged for a closer look

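PGRP-LC, the Imd receptor gene, was set apart by a test of the difference between starvation after and before the checkpoint, at a log2 change of −1.69 (SE 0.35, adjusted p = 0.0378 in edgeR). It was lower in all 3 post-NRC libraries than in any pre-NRC library, and the call was lost in 7 of the 9 fits without 1 library. The side of the checkpoint cannot be told apart from larval age or length of starvation.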

How the results depend on the processing

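In pre-NRC starvation against feeding, where 7 genes rose, 4 to 8 were called when 1 library was left out and 5 to 8 under the other alternatives, each of them a rise. These counts include PGRP-SB1 and GNBP3, which passed under some alternatives and are not among the 7. In post-NRC starvation against feeding, where 0 passed, 6 were called by DESeq2, 3 with the replicate block, 3 with libraries 1 and 2 alone, and 0 to 1 without 1 library. Over all genes the main fit called 88, DESeq2 733, the block 193, and libraries 1 and 2 alone 741. In post-NRC against pre-NRC starvation, where 1 fell, 3 falls were called by DESeq2, 3 with the replicate block (PGRP-LB, PGRP-LC and PGRP-SC2), 2 on log2(FPKM + 1) and 2 on log2(FPKM + 0.1), and 2 with libraries 1 and 2 alone. There were 0 in the 6 libraries alone and 0 with feeding libraries 1 and 2 summed, and 0 to 2 without 1 library. Same-number libraries of the starved groups deviated together with correlations of 0.0998 to 0.365. The lowest value was for library 1 with library 1, whereas post-NRC library 2 with pre-NRC library 1 gave 0.234. The block changed no call of a member in pre-NRC starvation against feeding.

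PGRP-SB1 in post-NRC starvation against feeding (0.59) turned to −2.02 in limma-voom, −1.01 with the replicate block and −0.79 on log2(FPKM + 0.1), and ran from −6.63 to 1.59 without 1 library. PGRP-SD in post-NRC against pre-NRC starvation ran from −1.23 to 0.24. The cause was not tested. Of 597 alternative values of the 30 member changes, 540 kept direction and side of the threshold. Libraries 1 and 2 alone, and the sum of feeding libraries 1 and 2, were chosen after seeing the data. Fewer than 50 counts in feeding limit PGRP-SB1, PGRP-SB2 and GNBP-like3.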

Other observations

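The counts and the FPKM values of PGRP-LB did not keep 1 ratio. The gene length that the count and the FPKM imply together ran from 1683 to 7208 bases over the 9 libraries, whereas the annotated exons cover 1775 bases. The highest value was that of pre-NRC starvation library 3, with 7099 counts at 30.0 FPKM, beside 7800 counts at 110 FPKM in library 1. The ratio of the highest to the lowest implied length was 4.28, against a median of 1.10 over 7072 genes with at least 100 counts in every library, and 99.9% of these genes had a smaller ratio. For PGRP-LC it was 1.35, and for the other recognition genes 1.03 to 1.09 over libraries with at least 100 counts.

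Over the 9 libraries, the log2 CPM values of PGRP-LB were most like those of CG17230 (Pearson's r = 0.991) and CG17264 (0.990) among 7142 genes with a mean of at least 10 CPM. Those of PGRP-LC were most like Tsp66E (0.986) and CG3726 (0.986), and those of PGRP-SC2 most like ome (0.991) and CG32302 (0.989). These values describe 9 libraries in 3 groups, so genes that differ between the groups share that part of the pattern.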
